A study of Rattus norvegicus with 6 samples.

Results

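B cell precursor genes are the genes that a lymphoid progenitor switches on while it builds its first antigen receptor in the bone marrow, and 10 of them were followed here: the recombinase genes Rag1 and Rag2, Dntt, the surrogate light chain genes Vpreb1 and Igll1 with their relative Vpreb3, the transcription factor genes Pax5 and Ebf1, and the receptor signalling genes Cd79a and Cd79b. They were chosen by symbol from a table of 34045 genes, in which 9 of the 10 symbols were found. The row for Cd79a is listed under the clone name AABR07002700.1 and was identified by its description, which carries the NCBI gene number 100913063 that RefSeq gives to Cd79a. It is reported beside the 9 genes matched by name. Expression was measured by RNA sequencing in defects made in the skull roof of wild type male Sprague-Dawley rats, an outbred stock, 4 weeks after surgery. In 3 libraries the defect had received the CGG-Cit hydrogel and in 3 the CGG hydrogel, names that the labels do not spell out. The series title speaks of hydrogels coordinated with a metabolite of the tricarboxylic acid cycle and of cranial bone regeneration, and the comparison asks how the defect tissue differed between the gels. The labels give no rat ages and do not say whether the libraries of a group were taken from separate animals. The p-values therefore measure the spread between these libraries alone, which may be technical.

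In the marrow, Ebf1 and Pax5 commit progenitors to the B lineage. Rag1 and Rag2 then cut the immunoglobulin gene segments, and Dntt, the terminal deoxynucleotidyl transferase, adds untemplated nucleotides at the joints. Until a light chain is made, the new heavy chain is carried to the surface by the surrogate light chain, formed by the products of Vpreb1 and Igll1, and signals through the paired chains encoded by Cd79a and Cd79b. The recombinase, Dntt and the surrogate light chain are shut off as B cells mature, whereas Cd79a, Cd79b, Pax5 and Ebf1 stay on in circulating B cells.

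B cell precursor transcripts were lower in CGG-Cit than in CGG defects. Of the 9 genes matched by name 6 fell and 0 rose, and Cd79a fell as well. The mean level in CGG-Cit was 20.1% of the CGG mean for Vpreb3, 29.2% for Igll1, 30.5% for Vpreb1, 34.97% for Cd79a, 38.8% for Cd79b, 39.6% for Rag1 and 39.9% for Dntt. Pax5 (42.2%), Rag2 (45.2%) and Ebf1 (81.1%) did not pass. The test was limma on log2(FPKM + 1), where FPKM is the number of fragments on a gene corrected for its length and for library size. It covered the 15965 genes whose mean reached 0.5 FPKM. A gene passed at a Benjamini-Hochberg adjusted p under 0.05 over all of these genes, and fold changes are given on that log2 scale as CGG-Cit minus CGG, which understates the change of low genes. All 10 genes were above this minimum. By the same rule 9.78% of all tested genes were lower and 7.75% higher, 17.5% in all. The groups did not overlap, with CGG-Cit lower, in 7 of the 9 genes and in Cd79a, against 22.1% of all tested genes, or 41.7% when either direction is counted. The median log2 fold change was -1.21 over the 9 genes and 0.002 over all genes tested.

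The calls leaned on single libraries. Without CGG 3 the count of genes that fell was 0 of 9, without CGG 1 or CGG-Cit 2 it was 1 (Vpreb3 in both cases), without CGG 2 it was 3, without CGG-Cit 1 it was 4 and without CGG-Cit 3 it was 7. The count over all tested genes, 1561 with all 6 libraries, changed in the same fits. It was 186 without CGG 3, 279 without CGG-Cit 2 and 656 without CGG 1. Without CGG 2 it was 507, without CGG-Cit 1 it was 505 and without CGG-Cit 3 it was 1626. All 10 genes kept a negative log2 fold change in each of 16 alternative fits. Because this is bulk tissue, fewer cells of a type and less RNA per cell cannot be told apart.

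**Figure D1:**
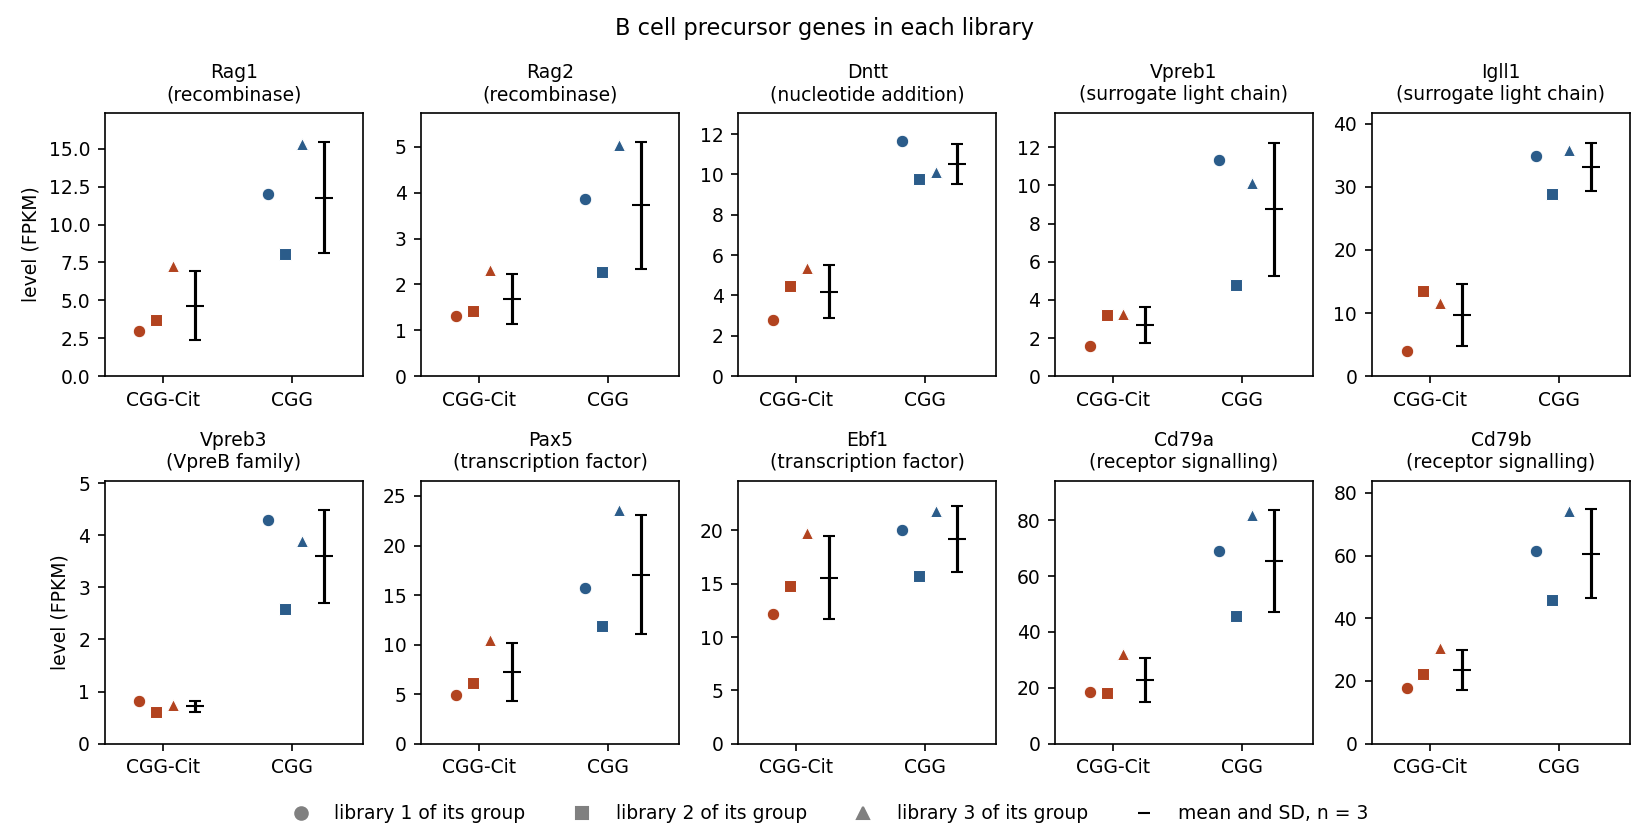
Level in FPKM (vertical axes, from 0, each gene on its own scale) of the 10 genes in the 3 CGG-Cit and the 3 CGG libraries, with 1 marker shape per library number and the mean and SD beside the points. Igll1 lies at 4.05 to 13.5 FPKM in CGG-Cit and at 28.8 to 35.9 FPKM in CGG, while the groups overlap for Rag2 and Ebf1.

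Rag1, which encodes the catalytic subunit of the recombinase (ENSRNOG00000004630, listed at chromosome 3, 91206394 to 91217491, minus strand), had 2.97, 3.74 and 7.27 FPKM in CGG-Cit 1, 2 and 3, against 11.99, 8.03 and 15.3 FPKM in CGG 1, 2 and 3. Every CGG-Cit library lay below every CGG library, but CGG-Cit 3 came close to CGG 2. Rag1 fell by 1.21 ± 0.325 on the log2 scale (SE; adjusted p = 0.0484), and omitting any of the other 5 libraries than CGG-Cit 3 ended the call (highest adjusted p 0.147). So did a pseudocount of 0.1 (adjusted p = 0.0501), no filter on low values (0.0811) and TPM, which scales each library to one sum of length-corrected values (0.0676).

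Rag2, the partner subunit that anchors the complex on chromatin (ENSRNOG00000004623, listed at chromosome 3, 91191837 to 91200134, plus strand), had 1.31, 1.43 and 2.32 FPKM in CGG-Cit 1, 2 and 3, against 3.87, 2.27 and 5.04 FPKM in CGG 1, 2 and 3. CGG-Cit 3 lay above CGG 2, so the groups overlapped. The log2 fold change of -0.79 ± 0.264 (SE) did not pass (adjusted p = 0.0836), although it did with sample quality weights (0.0496). The recombinase genes face each other 6.3 kb apart, and the listed span of Rag2 overlaps the minus-strand gene RGD1309730 (653 fragments over the 6 libraries). No source used here gives the strand setting of the counting, so reads of Rag2 and that neighbour cannot be told apart where they overlap. The ratio of Rag1 to Rag2 was 2.27, 2.62 and 3.13 in CGG-Cit and 3.10, 3.53 and 3.04 in CGG, with overlapping groups.

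Dntt (ENSRNOG00000013615, listed at chromosome 1, 260289589 to 260321320) had 2.77, 4.45 and 5.37 FPKM in CGG-Cit 1, 2 and 3, against 11.6, 9.78 and 10.1 FPKM in CGG 1, 2 and 3. The CGG libraries were close to each other, and the highest CGG-Cit value stayed clear of the lowest CGG value. Dntt averaged 4.20 ± 1.32 FPKM in CGG-Cit and 10.5 ± 0.987 FPKM in CGG (SD, n = 3 each) and fell by 1.18 ± 0.204 on the log2 scale (SE; adjusted p = 0.0181). Omitting CGG 1, CGG 2, CGG 3 or CGG-Cit 2 ended the call (highest adjusted p 0.0668).

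Igll1, which encodes the constant-like part of the surrogate light chain (ENSRNOG00000025990, listed at chromosome 11, 88388378 to 88391370), had 4.05, 13.5 and 11.5 FPKM in CGG-Cit 1, 2 and 3, against 34.8, 28.8 and 35.9 FPKM in CGG 1, 2 and 3. The lowest CGG library was more than 2-fold above the highest CGG-Cit library. Igll1 fell by 1.81 ± 0.383 on the log2 scale (SE; adjusted p = 0.0267), a call that was lost on omitting CGG 1, CGG 2, CGG 3 or CGG-Cit 2 (highest adjusted p 0.092).

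Vpreb1, whose product forms the variable-like part of the surrogate light chain (ENSRNOG00000052348, listed at chromosome 11, 88376256 to 88377133, 11.2 kb before Igll1 on the same strand), had 1.57, 3.19 and 3.24 FPKM in CGG-Cit 1, 2 and 3, against 11.3, 4.77 and 10.1 FPKM in CGG 1, 2 and 3. CGG 2 stood well below the other CGG libraries and nearest to CGG-Cit. Vpreb1 fell by 1.37 ± 0.338 on the log2 scale (SE; adjusted p = 0.038). Omitting CGG-Cit 1, CGG-Cit 2, CGG 1 or CGG 3 ended the call (highest adjusted p 0.125), as did no filter (0.0662), TPM (0.0519) and limma's voom on the fragment counts (0.0521). The ratio of Vpreb1 to Igll1 ranged from 0.237 to 0.388 in CGG-Cit and from 0.165 to 0.325 in CGG, so the surrogate light chain genes kept overlapping proportions.

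Vpreb3, a relative of Vpreb1 whose product binds heavy chains inside the cell (ENSRNOG00000028394, listed at chromosome 20, 13656825 to 13657943), had 0.815, 0.606 and 0.743 FPKM in CGG-Cit 1, 2 and 3, against 4.30, 2.59 and 3.89 FPKM in CGG 1, 2 and 3. These values rest on 4, 3 and 4 fragments in CGG-Cit and on 22, 13 and 19 in CGG, over a listed gene length of 321 bases. The exact 95% Poisson interval, which covers counting error only, ran from 1.09 to 10.2 fragments for a count of 4 and from 6.92 to 22.2 for the CGG 2 count of 13, so the intervals of these libraries overlap although the counts do not. Vpreb3 fell by 1.40 ± 0.186 on the log2 scale (SE; adjusted p = 0.0108), and of the 16 alternatives it missed the threshold without CGG 3 alone (adjusted p = 0.052).

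Pax5, the factor that keeps cells in the B lineage (ENSRNOG00000024729, listed at chromosome 5, 60007587 to 60191941), had 4.95, 6.17 and 10.5 FPKM in CGG-Cit 1, 2 and 3, against 15.7, 11.9 and 23.6 FPKM in CGG 1, 2 and 3. The groups did not overlap, and CGG-Cit 3 and CGG 2 were nearest to each other. The log2 fold change of -1.14 ± 0.315 (SE) lay just past the threshold (adjusted p = 0.0509) and passed in 5 of 16 alternatives, one of them the fit without CGG-Cit 3 (0.0243).

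Ebf1, the earlier factor of B lineage commitment (ENSRNOG00000028845, listed at chromosome 10, 23661013 to 24050209), had 12.1, 14.8 and 19.8 FPKM in CGG-Cit 1, 2 and 3, against 20.1, 15.7 and 21.8 FPKM in CGG 1, 2 and 3. The groups overlapped, and the log2 fold change of -0.30 ± 0.197 (SE) did not pass (adjusted p = 0.319), nor in any of 16 alternatives (adjusted p from 0.11 to 0.692). The ratio of Pax5 to Ebf1 was 0.408, 0.417 and 0.531 in CGG-Cit and 0.783, 0.754 and 1.085 in CGG, without overlap. In a two-sided exact permutation test the ratio gave p = 0.1, the smallest that 3 against 3 libraries allow, and 0.233 adjusted over the 7 gene ratios computed. Outside the B lineage Ebf1 is known from stromal and fat precursor cells. Of 11 markers of such cells Pdgfra and Pparg rose and Cxcl12 fell, the last a call lost on omitting any library but CGG-Cit 3. Without CGG-Cit 1 the count that rose was 3, and without CGG-Cit 2 it was 1. Their summed level was 296.7 to 444.7 FPKM in CGG-Cit and 276.5 to 391.5 FPKM in CGG. Their part in the Ebf1 value was not tested.

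Cd79b, one chain of the receptor's signalling pair (ENSRNOG00000011917, listed at chromosome 10, 94497448 to 94500591), had 17.9, 22.3 and 30.4 FPKM in CGG-Cit 1, 2 and 3, against 61.6, 45.9 and 74.3 FPKM in CGG 1, 2 and 3. The groups did not overlap. Cd79b fell by 1.33 ± 0.237 on the log2 scale (SE; adjusted p = 0.0191), and omitting CGG-Cit 2, CGG 1 or CGG 3 ended the call (highest adjusted p 0.0689).

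Cd79a, the other chain of the pair (ENSRNOG00000020125, listed at chromosome 1, 81763614 to 81767980), had 18.4, 18.3 and 32.1 FPKM in CGG-Cit 1, 2 and 3, against 69.0, 45.8 and 81.8 FPKM in CGG 1, 2 and 3. The groups did not overlap, and the gene fell by 1.48 ± 0.284 on the log2 scale (SE; adjusted p = 0.0217), a call lost on omitting CGG-Cit 1, CGG-Cit 2, CGG 1 or CGG 3 (highest adjusted p 0.0777). The ratio of Cd79a to Cd79b stayed near 1, at 1.03, 0.82 and 1.055 in CGG-Cit and at 1.12, 0.998 and 1.10 in CGG. A further row of the table, Cd79al, described as Cd79a-like, had 4, 6 and 8 fragments in CGG-Cit and 12, 6 and 14 in CGG. No source used here says how reads shared between such copies were assigned, so the split between these rows is uncertain.

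**Figure D2:**
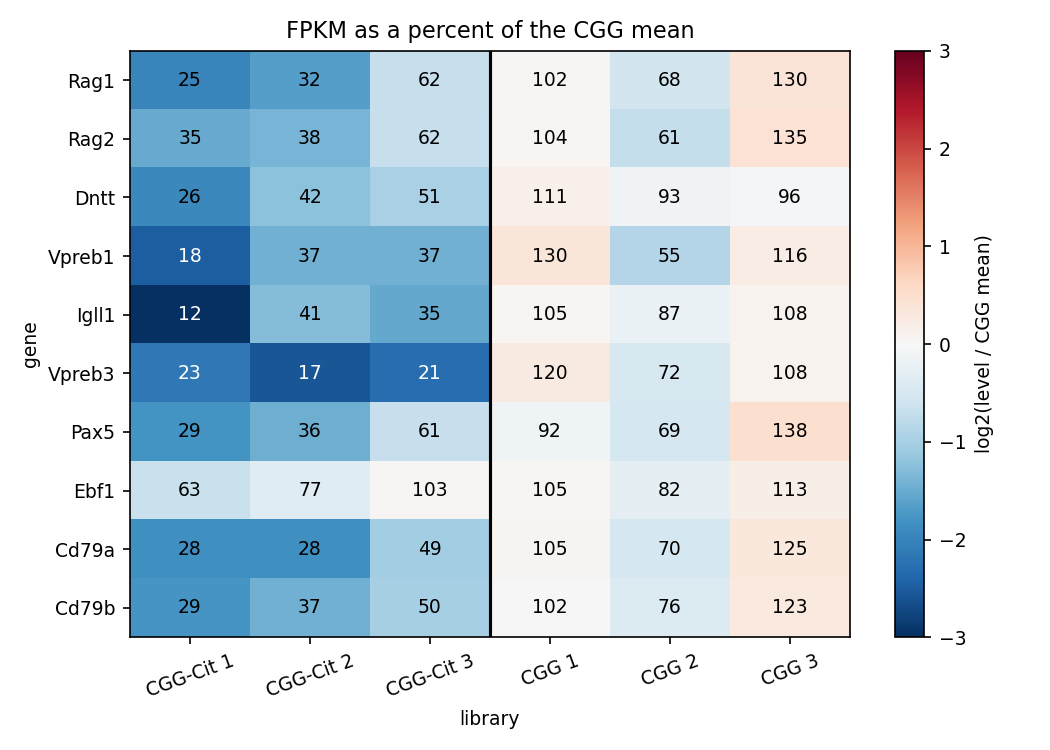
Level of each gene (rows) in each library (columns) as a percent of the gene's mean FPKM over the 3 CGG libraries, coloured on a log2 scale from blue (below the CGG mean) to red (above it). Apart from Ebf1, CGG-Cit 1 holds 12.2% to 35.1%, CGG-Cit 2 16.9% to 42.3% and CGG-Cit 3 20.7% to 62.2% of the CGG mean.

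Most of the genes shared their lowest library within each group. Of the 9 genes matched by name, 8 were lowest within CGG-Cit in CGG-Cit 1 (Vpreb3 was lowest in CGG-Cit 2) and 7 were highest in CGG-Cit 3, while all 9 were lowest within CGG in CGG 2. The highest CGG value lay in CGG 3 for 6 of these genes and in CGG 1 for 3. The share of all genes with this order was not counted. Outside the list, Mki67 and Mpo were also lowest within CGG in CGG 2, whereas S100a8 was highest there. Together the 10 genes took 125.3, 157.1 and 234.3 fragments per 1000000 assigned fragments in CGG-Cit 1, 2 and 3, against 401.3, 262.1 and 442.8 in CGG 1, 2 and 3. In level per length, Cd79b and Cd79a were highest in CGG-Cit, at 23.5 ± 6.34 and 22.9 ± 7.92 FPKM (SD, n = 3), followed by Ebf1, Igll1, Pax5, Rag1, Dntt, Vpreb1, Rag2 and Vpreb3, and of these neighbours Rag2 and Vpreb3 alone did not overlap. In CGG Cd79a and Cd79b were highest, at 65.5 ± 18.3 and 60.6 ± 14.3 FPKM, and Igll1 stood before Ebf1, so that Igll1 at 33.2 ± 3.79 FPKM was apart from both its neighbours while all later neighbours overlapped. The ratio of Igll1, a gene of precursors, to Cd79a, a gene of all B cells, was 0.22, 0.737 and 0.36 in CGG-Cit and 0.505, 0.63 and 0.438 in CGG. Its mean log2 difference of -0.42 did not separate the groups (two-sided exact permutation p = 0.5, and 0.583 adjusted over the 7 gene ratios computed).

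**Figure D3:**
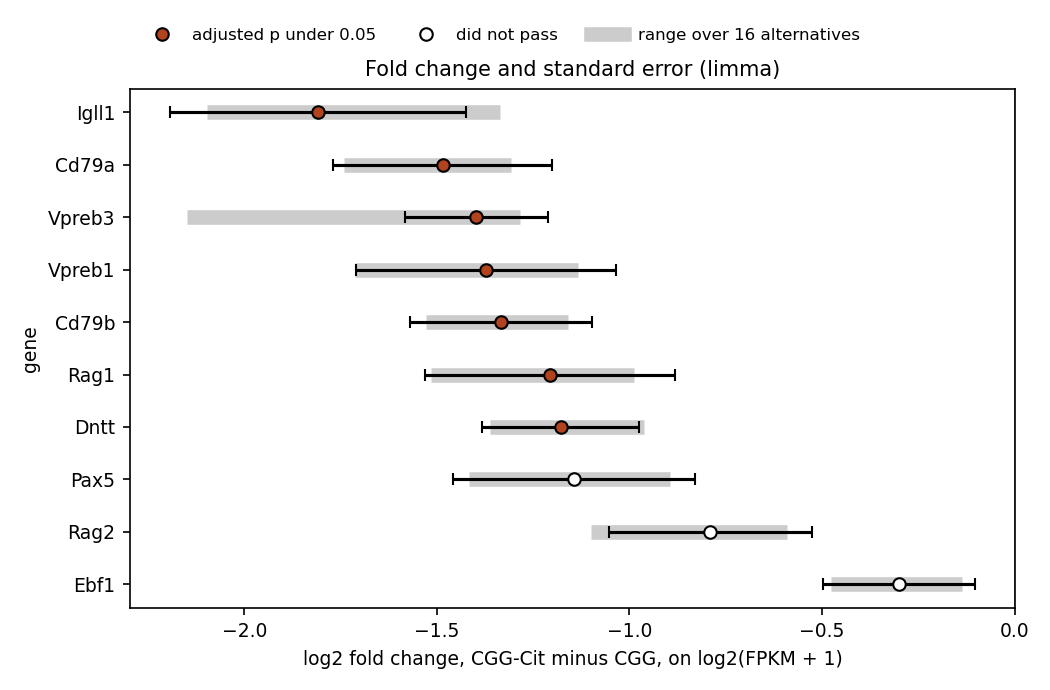
Log2 fold change of each gene, CGG-Cit minus CGG, on log2(FPKM + 1) (points, with the SE from limma as bars; filled where the adjusted p was under 0.05), and the range of the fold change over 16 alternative fits (grey). All ranges lie below 0, from -2.15 for Vpreb3 to -0.14 for Ebf1.

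A profile of the precursor genes was formed to find the genes most like them. The mean centred log2(FPKM + 1) of the 9 genes was -0.97, -0.55 and -0.23 in CGG-Cit 1, 2 and 3, against 0.70, 0.22 and 0.83 in CGG 1, 2 and 3. Among named protein-coding genes outside the list, the 5 with the highest Pearson correlation with this profile over the 6 libraries included Cacna2d1, Numb, Cep57 and Pspc1 (0.995 each). The coefficient describes 6 libraries that fall into separate groups and is given without a p. Cacna2d1, which encodes a calcium channel subunit, had 2.16, 2.79 and 3.99 FPKM in CGG-Cit and 6.97, 5.48 and 8.32 FPKM in CGG, without overlap. A high correlation does not mean a fall of like size. Numb was at 88.7%, Cep57 at 75.5% and Pspc1 at 72.8% of the CGG mean. Numb, Cep57 and Pspc1 did not pass (limma adjusted p = 0.225, 0.0509 and 0.0544).

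Promoter sequence is shown for 3 of the genes that fell, taken from RefSeq on the build GRCr8, whose table held 7 of the 10 genes (not Vpreb1, Pax5 or Cd79b). Each window runs from 250 bases before to 50 bases after a transcript start, 5′ to 3′ on the gene's strand. The windows are Cd79a at chr1:89621210-89621509 (plus strand), Igll1 at chr11:97642937-97643236 (plus strand) and Vpreb3 at chr20:12718177-12718476 (minus strand). Capitals mark CTCNNGGGA, a form of the site bound by Ebf1, and the E-box CAGNTG, bound by E proteins, in Cd79a and Igll1, and the octamer ATGCAAAT, bound by Oct factors, in Vpreb3.
Cd79a: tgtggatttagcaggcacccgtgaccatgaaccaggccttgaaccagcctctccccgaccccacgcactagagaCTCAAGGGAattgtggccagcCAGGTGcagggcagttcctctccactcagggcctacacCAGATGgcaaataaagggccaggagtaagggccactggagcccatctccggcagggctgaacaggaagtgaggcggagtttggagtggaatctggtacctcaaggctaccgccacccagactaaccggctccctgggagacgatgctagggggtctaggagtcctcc
Igll1: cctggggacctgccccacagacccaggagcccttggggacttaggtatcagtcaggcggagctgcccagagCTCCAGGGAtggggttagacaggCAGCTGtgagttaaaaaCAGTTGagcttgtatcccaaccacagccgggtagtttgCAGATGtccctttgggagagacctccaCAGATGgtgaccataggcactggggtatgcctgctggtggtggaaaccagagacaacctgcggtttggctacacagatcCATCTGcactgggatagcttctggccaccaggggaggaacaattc
Vpreb3: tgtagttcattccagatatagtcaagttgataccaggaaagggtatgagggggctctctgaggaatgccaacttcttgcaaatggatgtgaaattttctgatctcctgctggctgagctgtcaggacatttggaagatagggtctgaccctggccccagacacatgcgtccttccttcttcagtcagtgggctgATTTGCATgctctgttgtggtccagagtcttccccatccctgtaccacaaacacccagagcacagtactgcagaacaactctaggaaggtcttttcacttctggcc

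Both strands were searched. CTCNNGGGA lay in the windows of Cd79a and Igll1, 2 of 7, and in 7.0% of all 33469 promoter windows of the same length. The form CCCNNGGGA lay in 0 of 7 and in 5.91% of all windows. CAGNTG lay in 5 of 7 (Rag1, Rag2, Dntt, Igll1 and Cd79a), against 50.2% of all windows, and Igll1 held 5 such places, 1 of them reading the same on both strands. The octamer lay in Vpreb3 alone of the 7, against 1.78% of all windows, and starts at base 195 of the window printed, where it reads ATTTGCAT because the match is on the other strand. The letters TGGGAA, the core bound by Ikaros factors, lay in Rag1 and Dntt, against 25.7% of all windows. No marked place overlaps another in the sequences printed. A match is a description of these letters and not evidence of binding.

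Among other regulators of early B cells, 6 of 16 measured genes fell and 1 rose, with a median log2 fold change of -0.51. Myb, a factor of blood progenitors, fell by 1.497 ± 0.3 (SE; adjusted p = 0.024), Spib by 1.11, Pou2af1, a co-activator for octamer-bound factors, by 1.04, the E protein gene Tcf3 by 0.67, Lef1 by 0.56 and the chemokine receptor gene Cxcr4, which holds precursors in the marrow, by 0.42. Pou2af1 had 13.6, 14.3 and 20.02 FPKM in CGG-Cit and 35.9, 24.1 and 43.3 FPKM in CGG. Tcf4, another E protein gene, rose by 0.49 (adjusted p = 0.047). The receptor gene Il7r, needed by rodent B cell precursors and carried by T cells too, had 64.2, 20.6 and 13.9 FPKM in CGG-Cit and 9.08, 7.50 and 8.56 FPKM in CGG. Its groups did not overlap, on the opposite side from the precursor genes, and it did not pass (log2 fold change 1.56 ± 0.504, SE; adjusted p = 0.0775). Il7, the ligand made by stromal cells, had 5.83, 6.07 and 4.27 FPKM in CGG-Cit and 3.74, 2.999 and 3.44 FPKM in CGG. Its groups did not overlap either, and it did not pass (limma adjusted p = 0.0591).

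Of 12 genes of DNA end joining and recombinase cofactors 3 fell and 0 rose (median -0.32). Hmgb2, a cofactor of the recombinase that is also abundant in dividing cells, fell by 1.34 ± 0.239 (SE; adjusted p = 0.0191), the ligase gene Lig4 by 0.74 and Xrcc6, which encodes an end-binding protein, by 0.42. All 8 cell cycle genes measured fell too (0 to 5 on omitting any library but CGG-Cit 3), with a summed level of 183.9 to 277.4 FPKM in CGG-Cit and 369.0 to 503.8 FPKM in CGG, and their part in these values was not tested. Of 13 genes of signalling below the pre-B and B cell receptor, 2 fell and 0 rose (median -0.18). Plcg2, which encodes a phospholipase, fell by 0.50 ± 0.123 on the log2 scale (SE; adjusted p = 0.038). The adaptor gene Blnk had 25.2, 32.5 and 30.0 FPKM in CGG-Cit and 41.3, 29.5 and 43.9 FPKM in CGG, with overlapping groups (adjusted p = 0.186). Of the 12 calls in these 3 lists, 12 ended without CGG 1, CGG 3 or CGG-Cit 2, 11 without CGG-Cit 1, 6 without CGG 2 and 2 without CGG-Cit 3. Under TPM the median log2 fold change of all genes was 0.16, and the lists held 1, 1 and 1 lower and 3, 0 and 1 higher genes, in the order given here.

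**Figure D4:**
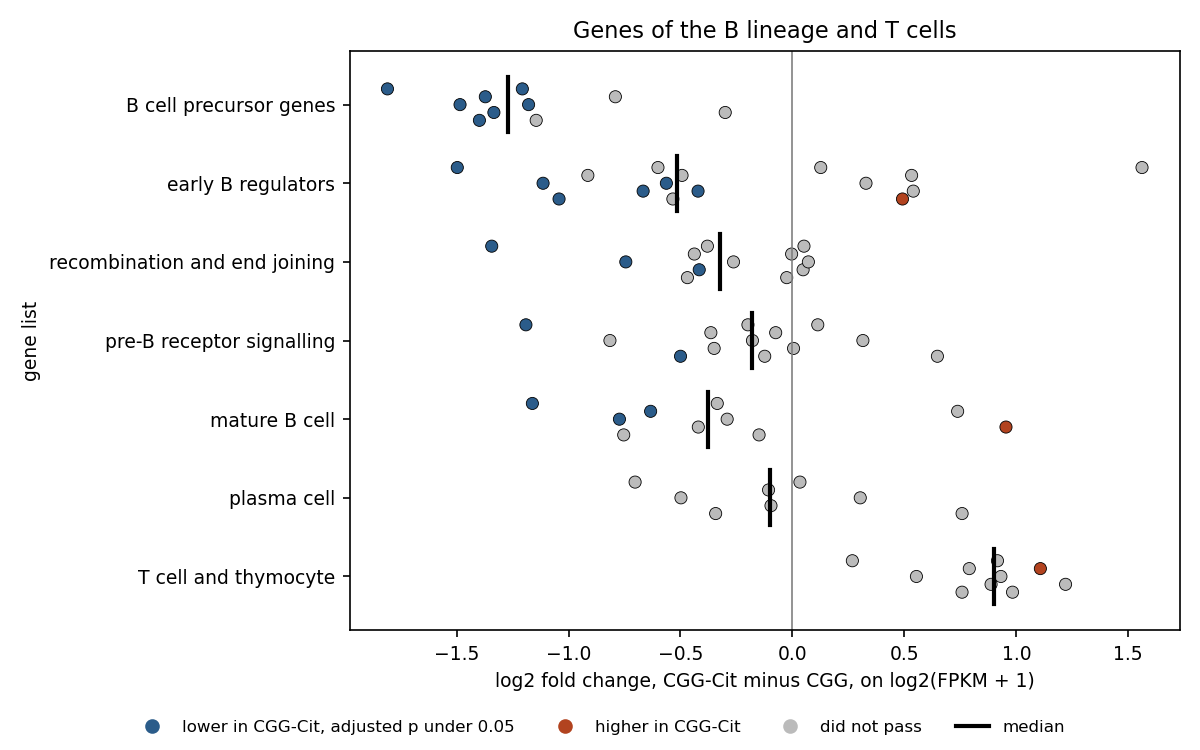
Log2 fold change, CGG-Cit minus CGG, of each measured gene (points) in the B cell precursor genes and in 6 further lists (rows), coloured by call, with the median of each list as a black bar. The median is -1.27 over the 10 precursor genes with Cd79a, -0.38 over mature B cell genes, -0.10 over plasma cell genes and 0.90 over T cell genes.

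Later stages of the B lineage stood beside these values as follows. Of 10 measured mature B cell genes 3 fell (Cd37, Fcrla and Tnfrsf13c) and Cxcr5 rose (median -0.38), and of 8 plasma cell genes 0 fell and 0 rose with limma (median -0.10). All 4 mature B cell calls were lost on omitting CGG-Cit 1, CGG-Cit 2, CGG 1 or CGG 3, and TPM left 1 lower. Of the plasma cell genes 3 had an unadjusted p below 0.05, voom called 0, and 1 rose without CGG-Cit 3. Ms4a1, which encodes CD20, had 10.2, 8.26 and 10.8 FPKM in CGG-Cit and 18.5, 11.8 and 22.7 FPKM in CGG (adjusted p = 0.0699). Ighm, the mu heavy chain gene, had 186.4, 218.8 and 239.0 FPKM in CGG-Cit and 234.1, 237.6 and 239.2 FPKM in CGG, with overlapping groups (adjusted p = 0.387). The ratio of Igll1 to Ighm was 0.0217, 0.0616 and 0.0483 in CGG-Cit and 0.149, 0.121 and 0.15 in CGG, and that of Cd79a to Ms4a1 was 1.80, 2.22 and 2.96 in CGG-Cit and 3.73, 3.88 and 3.61 in CGG. Neither ratio overlapped between the groups, each with a two-sided exact permutation p of 0.1, the smallest possible here, and 0.233 adjusted over 7 ratios.

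The recombinase genes and Dntt are also used by T cell precursors. In the T cell and thymocyte list 1 of 10 measured genes rose (Cd28; 5 under TPM or without CGG-Cit 3, 0 on omitting any other library) and 0 fell, with all 10 fold changes above 0, and the summed level of its 12 genes was 179.4 to 249.6 FPKM in CGG-Cit and 107.8 to 136.8 FPKM in CGG. Cd4 was the largest part of this sum in every library, with means of 125.0 FPKM in CGG-Cit and 72.2 FPKM in CGG. Cd4 itself did not pass (limma adjusted p = 0.0807), and its groups overlapped. Within CGG-Cit, Cd4 was highest in CGG-Cit 2 (165.1 FPKM). Cd3e (16.3 FPKM) and Cd8a (42.6 FPKM) were highest in CGG-Cit 1, so the sum mixes genes of unlike order. The part of other cells in the Cd4 value was not tested. Ptcra, the thymocyte counterpart of the surrogate light chain, had 4.68, 0.892 and 0.492 FPKM in CGG-Cit and 0.345, 0.176 and 0.603 FPKM in CGG. In a list of plasmacytoid dendritic cells, which share some lymphoid genes, 1 of 7 rose and 0 fell. That gene, Clec10a, is known from macrophages and conventional dendritic cells, and its call was lost on omitting CGG-Cit 2, CGG 2 or CGG 3. Siglech, a more specific marker, had 8.87, 3.58 and 1.604 FPKM in CGG-Cit and 1.63, 1.33 and 1.24 FPKM in CGG, with overlapping groups (adjusted p = 0.154). The list summed to 584.5 to 1538 FPKM in CGG-Cit and 261.1 to 641.7 FPKM in CGG, most of it from the interferon response genes Irf7 (means of 783.0 FPKM in CGG-Cit and 287.3 FPKM in CGG) and Bst2 (191.6 FPKM in CGG-Cit and 117.6 FPKM in CGG).

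Many genes of other marrow lineages were lower in CGG-Cit as well, and the order across libraries differed for some of them. Within CGG the neutrophil and megakaryocyte sums were highest in CGG 2 (15894 and 523.9 FPKM). Among the neutrophil genes S100a8, S100a9, Camp, Ngp and Cxcr2 were highest in CGG 2. Mpo (401.0 FPKM) and Elane (304.2 FPKM) were lowest there within CGG. The 10 precursor genes also had their lowest CGG sum in CGG 2 (175.5 FPKM), as did the cell cycle genes (369.0 FPKM). Of the genes above the minimum, all 7 neutrophil genes, all 6 erythroid genes and 3 of 4 megakaryocyte genes fell, with summed levels of 2260 to 5855, 228.9 to 442.0 and 183.4 to 402.1 FPKM in CGG-Cit and 14044 to 15894, 762.8 to 925.6 and 469.2 to 523.9 FPKM in CGG. These counts also leaned on single libraries. Without CGG-Cit 1 they were 1 neutrophil, 2 erythroid and 0 megakaryocyte genes, without CGG-Cit 2 they were 3, 2 and 1, without CGG 1 they were 5, 2 and 2, without CGG 2 they were 1, 2 and 0, and without CGG 3 they were 0, 1 and 0, in that order. All 5 skeletal muscle genes and 4 of 6 osteoblast genes fell too, and 5 of 6 macrophage genes rose. The macrophage count was 2 without CGG-Cit 1 or CGG-Cit 2, 3 without CGG 2 and 1 without CGG 3, and the osteoblast count was 0 on omitting CGG-Cit 2 or any CGG library. Of the muscle genes 4 or 5 fell whichever library was omitted. Skeletal muscle genes summed to 27.2 to 220.0 FPKM in CGG-Cit and 4677 to 5263 FPKM in CGG, and macrophage genes to 1173 to 1776 FPKM in CGG-Cit and 645.9 to 690.4 FPKM in CGG. Osteoblast genes, a list that includes Col1a1 and Runx2, summed to 4168 to 7111 FPKM in CGG-Cit and 8521 to 12552 FPKM in CGG. Their part in the values of the B cell precursor genes was not tested. Depth was even, at 14744207 to 16127352 assigned fragments in CGG-Cit and 15054925 to 16224920 in CGG.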

How the data were processed

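RNA sequencing values came from a single deposited table of FPKM per gene with gene lengths. The submitters' processing notes list, without roles, the build mRatBN7.2 and the tools featureCounts 1.5.0-p3, HISAT2 2.0.5 and DESeq2 1.20.0. FPKM as deposited by the authors, multiplied with gene length, gave whole multiples of 1 fragment in 100% of values above 0 (tolerance 0.01 fragments), so fragments per gene were recovered. The table's coordinates are printed as listed, with no build, because they were not tied to one.

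Groups came from the sample titles. Tests used R 4.3.3 with limma 3.58.1 (lmFit, then eBayes with trend) on log2(FPKM + 1), all 6 libraries, no block, and were tested on simulated data. Gene lists held 137 further symbols, of which 133 were in the table and 4 were not analysed here. The members and lists were chosen with earlier results of these data known. Named genes were the 10 members, the called genes of the 3 pathway lists and the 5 genes closest in profile. Some genes under this rule or in the lists are not reported here. Genes of marker lists, Il7, Il7r, Blnk and every ratio but Igll1 to Cd79a were chosen after their values were seen. Alternatives were pseudocounts of 0.1 and 0.5, a minimum mean of 2 FPKM or none, TPM, median-of-ratios and quantile scaling, sample quality weights, voom, a replicate block and each library left out. Counting Cd79a among the members was chosen after seeing the data. Python 3.11.15, pandas 2.3.3 and SciPy 1.17.1 prepared tables and exact tests.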

Additional observations from a re-analysis of the deposited data

How the results depend on the processing

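Rescaling to TPM gave 2203 higher and 948 lower genes, against 1237 and 1561 as deposited, and the replicate block gave 612 higher genes. Precursor genes that fell numbered 4 to 8 of 9 under the settings that keep all 6 libraries, 7 of 10 with Cd79a counted, and 0 to 7 when a library was left out, while 0 rose throughout. With a library left out, all genes gave 121 to 1313 higher and 186 to 1626 lower. Early B regulators fell in 3 cases without the filter and 1 under TPM, and rose in 0 without the filter, 3 under TPM, 0 with the block and 2 with quality weights. They gave 0 to 6 lower and 0 to 2 higher with a library left out. End joining genes fell in 1 case without the filter, 1 under TPM and 1 with the block, and in 0 to 4 with a library left out. Receptor signalling genes fell in 1 case without the filter, 1 under TPM and 0 with the block, and in 0 to 2 with a library left out. They rose in 1 under TPM and in 0 to 1 with a library left out. The cause was not tested. The Igll1 to Cd79a difference stayed negative, from -0.88 to -0.01 with a library left out.

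Same-numbered libraries of the groups did not deviate together (correlations of -0.0956, 0.00165 and -0.0779), and each number had a higher correlation with another number, so the numbers were not taken as pairs. With the replicate block 5 of the 9 precursor genes fell. Vpreb1 (adjusted p = 0.0834) and Igll1 (0.05005) did not pass in that fit, and Pax5 (0.0308) did. Depth limits Vpreb3 most, with 3 to 22 fragments a library, and Vpreb1, with 19 to 143.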

Other observations

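Mature B cell genes moved in both directions. Cxcr5, the receptor that draws B cells into follicles and is carried by some T cells too, had 2.89, 3.29 and 3.23 FPKM in CGG-Cit 1, 2 and 3, against 0.755, 1.75 and 1.01 FPKM in CGG 1, 2 and 3. It rose by 0.95 ± 0.195 (SE; limma adjusted p = 0.0249), a call lost on omitting CGG-Cit 1, CGG-Cit 2, CGG 1 or CGG 3 (highest adjusted p 0.0872). Fcrla, known from germinal centre B cells, had 18.3, 15.7 and 22.9 FPKM in CGG-Cit and 45.8, 31.0 and 56.5 FPKM in CGG and fell by 1.16 ± 0.236 (SE; adjusted p = 0.0248), a call lost on omitting any of the same 4 libraries (highest adjusted p 0.0812).

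No plasma cell gene passed with all 6 libraries. Jchain, the joining chain of secreted IgM and IgA, averaged 852.5 ± 108.2 FPKM in CGG-Cit and 917.6 ± 109.8 FPKM in CGG (SD, n = 3 each; adjusted p = 0.655), and the groups overlapped. Sdc1, which encodes the plasma cell surface protein CD138 and is made by other cells too, had 105.2, 65.3 and 43.3 FPKM in CGG-Cit and 35.6, 42.5 and 39.5 FPKM in CGG. Its groups did not overlap, with CGG-Cit higher, and the difference did not pass (limma adjusted p = 0.123). These genes were chosen after their values were seen.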
